A study of Homo sapiens with 3 samples.

Results

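The genes described here encode the sugar, monocarboxylate, amino acid and neurotransmitter carriers of 8 solute carrier families, chosen by gene symbol alone as the numbered members of SLC1A, SLC2A, SLC3A, SLC6A, SLC7A, SLC16A, SLC38A and SLC43A. The rule took 83 of the 62754 genes listed, and all 83 are protein-coding. They were measured in polyadenylated RNA of wild-type primitive neural progenitor cells (pNPCs). These are dividing cells of an early neural stage, here made from H1, an established human embryonic stem cell line. The labels give 1 group of 3 replicates (pNPC_WT) and do not say whether each came from a culture of its own. The p-values of the test of spread therefore measure only how far these samples differ from each other, and that spread may be technical. Those of the gene pairs measure only whether a difference between 2 genes recurs across these samples. All 3 share 1 genotype, 1 parental line and 1 culture condition. The medium joined Neurobasal, plus GlutaMax (a stable glutamine dipeptide), and DMEM/F12 in equal parts with N2 and B27-RA supplements. It also held FGF2 (20 ng/ml), CHIR99021 (3 µM), hLIF (10 ng/ml), SB431542 (2 µM) and the ROCK inhibitor Y-27632 (10 µM). No other cell type, medium or time point is compared.

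Solute carriers set which nutrients a cell can take up and release. Facilitative glucose transporters let glucose flow down its gradient, and monocarboxylate transporters move lactate and pyruvate together with protons. Amino acids enter by sodium-driven carriers or by exchangers that trade one amino acid for another, while neurons and glia use related sodium-driven carriers to clear glutamate, GABA, glycine and monoamines from the extracellular space.

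The libraries held 30038114 to 38400092 expected counts, of which the carriers took 0.258% to 0.276%. Every 2 libraries differed by more than counting noise (chi-square per degree of freedom 19.4 to 82.5, lowest for replicates 2 and 3), so all 3 were kept as replicates. Among 7 progenitor markers 6 were detected, with VIM at 1912 ± 194, HMGA2 at 387 ± 142 and NES at 181 ± 21.1 TPM (mean ± SD, n = 3), while SOX1 was low at 5.54 ± 2.46 TPM and PAX6 was not detected at 0.44 ± 0.34 TPM. All 8 neuron markers (summed TPM 613 to 1083) and all 7 mesenchyme markers (572 to 1268) were detected too, led by TUBB3, NEFM and GAP43 and by COL1A2, PRRX1 and TWIST1. Astrocyte markers gave 3 of 6 (GJA1, CLU and S100B, with ALDH1L1 at 0.22 ± 0.14 and AQP4 at 0.087 ± 0.021 TPM). Pluripotency markers gave 1 of 4, and markers of endothelium and blood 0 of 6, with a summed TPM of at most 0.31 and 4 of the 6 at 0 counts. In bulk RNA fewer cells of a type and less RNA per cell cannot be told apart, so no carrier below is assigned to a cell type.

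Of the 83 carriers 45 were detected, meaning that each of the 3 libraries had at least 1 TPM (a transcript share that corrects a gene's reads for its length and for depth). That is 54.2% of the members, beside 62.2% of all protein-coding genes and 23.0% of all genes listed. Mean TPM reached at least 10 for 25 members and at least 100 for 5. The 5 were SLC3A2, SLC2A1, SLC1A5, SLC6A8 and SLC16A1, that is, a shared subunit of amino acid exchangers, a glucose carrier, a neutral amino acid carrier, a creatine carrier and a lactate carrier. With SLC38A2, a carrier of small neutral amino acids, the 6 highest genes took 55.5% ± 3.14 of all TPM of the families (mean ± SD, n = 3), and the 10 highest took 70.5% ± 1.64. The median detected carrier stood at 13.5 TPM, below the median of 21.0 TPM over all detected protein-coding genes. Just inside the threshold was SLC7A7 at 1.13, 1.04 and 1.22 TPM, and just outside it SLC16A6 at 0.97, 1.16 and 1.73 TPM and SLC1A6 at 1.27, 0.90 and 1.05 TPM in replicates 1, 2 and 3. Of the 38 undetected members 33 had a mean TPM under 0.5 and 6 had 0 counts in every library.

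**Figure D1:**
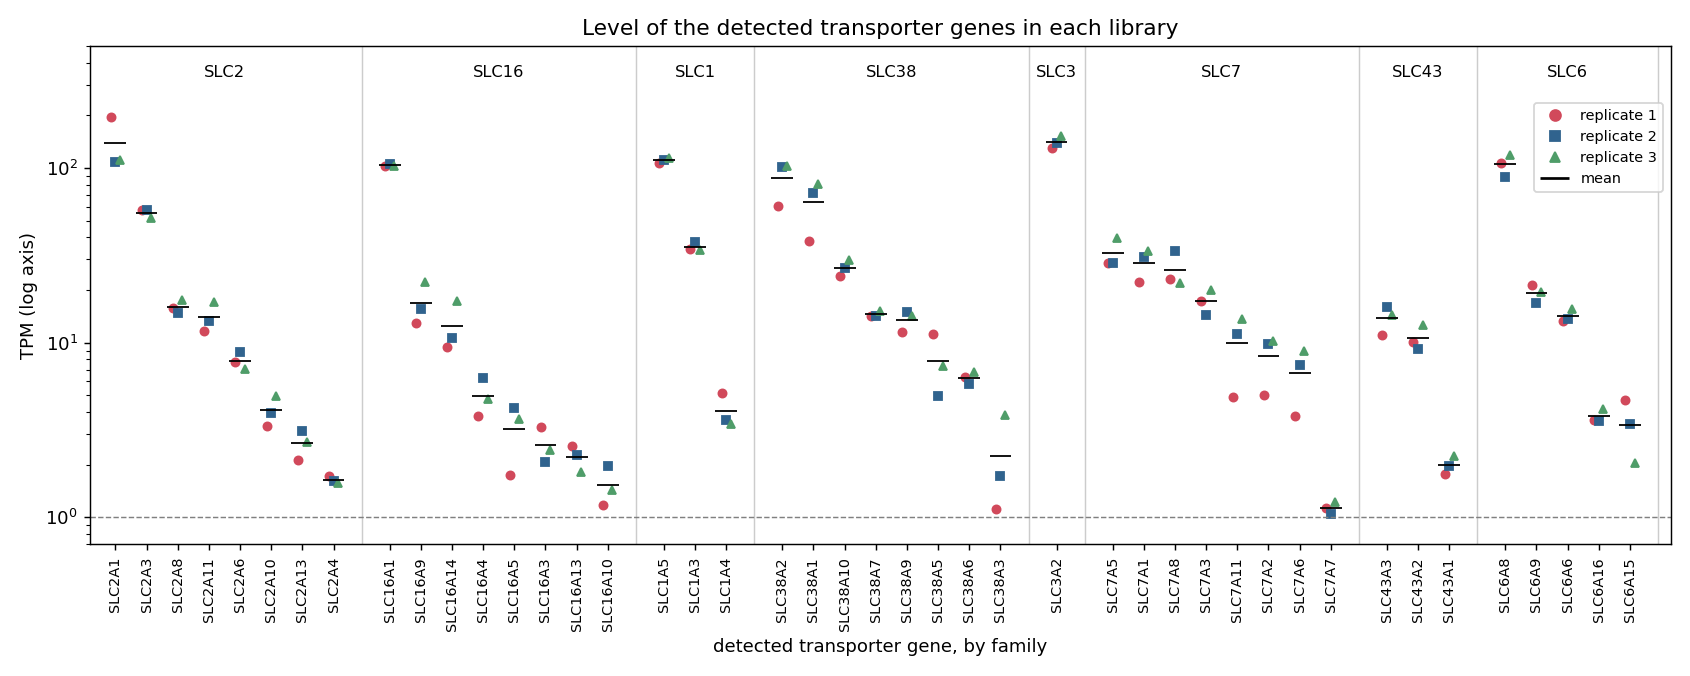
TPM (log axis) of 44 of the 45 detected carriers in replicates 1, 2 and 3, ordered by mean within each family, with a bar at the mean and a dashed line at the detection threshold of 1 TPM. SLC2A1, SLC16A1, SLC1A5 and SLC6A8 each stand well above the next gene of their family, while SLC7 declines gradually from SLC7A5 at a mean of 32.4 TPM.

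Sugar carriers of the SLC2 family (GLUT proteins) were detected in 8 of 14 cases, with 4 at a mean of at least 10 TPM. SLC2A1 (GLUT1, ENSG00000117394.24, chromosome 1, 42925353 to 42958868, GRCh38), the widespread carrier for basal glucose uptake, stood at 196, 108 and 110 TPM in replicates 1, 2 and 3. Replicate 1 was thus the high library, and replicates 2 and 3 lay close together. SLC2A3 (GLUT3, ENSG00000059804.17, chromosome 12, 7919230 to 7936187), the high-affinity carrier best known from neurons, varied less, at 57.1, 57.3 and 51.4 TPM. SLC2A1 took 56.1% ± 8.54 of the family's TPM. Within each library SLC2A3 lay below SLC2A1, by -1.76, -0.90 and -1.09 on the log2(TPM + 1) scale.

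The next genes lay well below. SLC2A8 (GLUT8), which resides mainly on intracellular membranes, had 15.8, 14.7 and 17.5 TPM, and SLC2A11 (GLUT11) had 11.6, 13.3 and 17.0 TPM. Lower still were SLC2A6 at 7.87 ± 0.89, SLC2A10 at 4.09 ± 0.82 and the inositol carrier SLC2A13 at 2.65 ± 0.49 TPM. The insulin-regulated carrier SLC2A4 (GLUT4) was detected at 1.63 ± 0.07 TPM (93 to 127 counts). Carriers known from liver, intestine and kidney were at or near 0, with SLC2A2 at 0, 0.01 and 0 TPM, the fructose carrier SLC2A5 at 0.11 ± 0.09 TPM, the urate carrier SLC2A9 at 0.27 ± 0.27 TPM, and SLC2A7 at 0 counts (3 counts would be at most 0.0880 TPM). The sodium-driven glucose carriers SLC5A1 and SLC5A2, which lie outside these families, were undetected as well (SLC5A1 at 0 counts, SLC5A2 at 0.31 ± 0.29 TPM).

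SLC2A14 is a close copy of SLC2A3, and its level depends on how reads were divided between them. It was given 48.6, 42.1 and 27.1 counts (0.94 ± 0.19 TPM, not detected) against 4751, 4701 and 3455 counts for SLC2A3. Over 1488 aligned coding bases (GENCODE 29, GRCh38) the 2 genes were 96.8% identical, and 5.9% of the 100-base stretches of the SLC2A3 coding sequence also occur in that of SLC2A14. The 60 coding bases of their alignment with the most mismatches are printed to show what separates the copies, with the 7 mismatches in capitals (SLC2A3 at chr12:7930542-7930601 and SLC2A14 at chr12:7828766-7828825, both on the minus strand, inside 1 exon).
SLC2A3: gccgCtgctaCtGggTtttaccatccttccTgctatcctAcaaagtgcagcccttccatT
SLC2A14: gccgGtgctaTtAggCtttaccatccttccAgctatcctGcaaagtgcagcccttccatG
Reads over such a stretch can be told apart, whereas reads inside a shared stretch cannot.

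Among monocarboxylate carriers (SLC16, MCT proteins) 9 of 14 were detected. SLC16A1 (MCT1, ENSG00000155380.13, chromosome 1, 112911847 to 112956196), which moves lactate and pyruvate in most tissues, stood at 103, 106 and 103 TPM. It had the steadiest level of the 5 highest carriers (104 ± 1.57 TPM) and took 96.5% ± 0.56 of the TPM of the 4 lactate and pyruvate carriers. SLC16A3 (MCT4), the lactate exporter of strongly glycolytic cells and astrocytes, had 3.29, 2.07 and 2.43 TPM. SLC16A1 exceeded it by 4.88 ± 0.26 on the log2(TPM + 1) scale. The ratio of their TPM, with no 1 added, was 41.6 ± 9.93 (n = 3). SLC16A7 (MCT2), the high-affinity form of neurons, was not detected at 0.11, 0.57 and 0.66 TPM, nor was SLC16A8 (MCT3), known from retinal pigment epithelium, at 0.34, 0.51 and 1.23 TPM.

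The rest of the family carries other substrates. SLC16A10, which carries aromatic amino acids, had 1.18, 1.95 and 1.43 TPM. SLC16A9, a carnitine carrier, had 12.95, 15.6 and 22.2 TPM, and SLC16A14, whose substrate is little known, 9.42, 10.6 and 17.4 TPM. Both were highest in replicate 3. SLC16A4, SLC16A5 and SLC16A13 lay between 2.21 and 4.92 TPM in the mean, and SLC16A12, a creatine carrier, was at 0.050 ± 0.044 TPM. Of the antisense genes named for this family 2 had a mean of at least 1 TPM, SLC16A1-AS1 at 4.31 ± 1.52 TPM and SLC16A4-AS1 at 3.68 ± 1.65 TPM. The sources used here do not give strandedness, so reads of a gene and of its antisense partner may not be separated, which matters most for SLC16A4 at 4.92 ± 1.23 TPM.

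**Figure D2:**
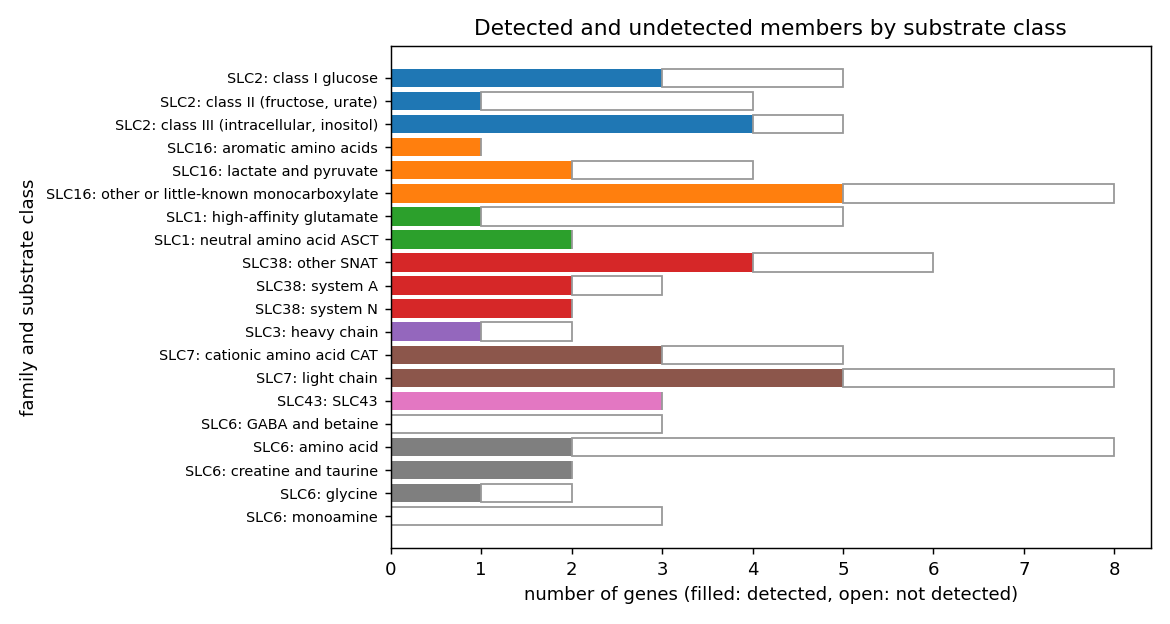
Number of members shown in each family and substrate class, with detected genes filled and undetected genes open. All genes shown of the GABA and betaine class (0 of 3 detected) and of the monoamine class (0 of 3) are open, while both ASCT genes and both creatine and taurine genes are filled.

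In the SLC1 family 3 of 7 members were detected, and they split by function. SLC1A5 (ASCT2, ENSG00000105281.12, chromosome 19, 46774883 to 46788594), a sodium-dependent exchanger through which many proliferating cells take up glutamine, had 107, 111 and 115 TPM, with less than 10 TPM between the lowest and highest library. SLC1A4 (ASCT1), which prefers alanine, serine and cysteine, had 5.15, 3.59 and 3.41 TPM. SLC1A5 was above it by 4.49 ± 0.31 log2 units. Of the 5 high-affinity glutamate carriers only SLC1A3 (EAAT1, also called GLAST), which is typical of radial glia and astrocytes, was detected, at 34.5, 37.7 and 33.7 TPM. It took 95.1% ± 0.73 of the TPM of this class. SLC1A2 (EAAT2), the main carrier of mature astrocytes, was at 0.27, 0.35 and 0.52 TPM, the neuronal carrier SLC1A1 (EAAT3) at 0.42, 0.33 and 0.20 TPM, the Purkinje cell carrier SLC1A6 (EAAT4) at 1.07 ± 0.19 TPM and the retinal carrier SLC1A7 (EAAT5) at 0, 0 and 0.07 TPM. Of the astrocyte markers GFAP, ALDH1L1 and AQP4 were undetected too, while GJA1, CLU and S100B were detected at 178 ± 50.7, 102 ± 19.5 and 16.4 ± 5.80 TPM.

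Sodium-coupled neutral amino acid carriers (SLC38, SNAT proteins) were detected in 8 of 11 cases, the largest share of any family with more than 3 members. That is 72.7%, followed by SLC16 at 64.3%, beside 62.2% of all protein-coding genes. SLC38A2 (ENSG00000134294.14, chromosome 12, 46358188 to 46372773) and SLC38A1 (chromosome 12, 46183063 to 46269043) belong to system A, which takes up glutamine, alanine and other small neutral amino acids. SLC38A2, whose gene is induced when amino acids run short, had 60.6, 101 and 102 TPM. SLC38A1 had 38.1, 72.2 and 80.6 TPM. Both were lowest in replicate 1. Within libraries SLC38A2 exceeded SLC38A1 by 0.49 ± 0.16 on the log2(TPM + 1) scale, but the order turned with CPM, which is not scaled for length (-0.43). The third system A gene, SLC38A4, was undetected at 0.01, 0.31 and 0.04 TPM, while the antisense gene SLC38A4-AS1 was at 1.83 ± 0.91 TPM.

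Next came 3 carriers that varied little between libraries. SLC38A10 had 24.0, 26.8 and 29.8 TPM, SLC38A7, a lysosomal glutamine carrier, had 14.1, 14.2 and 15.2 TPM, and SLC38A9, which senses lysosomal arginine for mTORC1, had 11.5, 14.95 and 14.2 TPM. The system N carriers, which can also release glutamine, were lower. SLC38A5 had 11.2, 4.93 and 7.30 TPM and SLC38A3 had 1.12, 1.72 and 3.86 TPM. SLC38A6 stood at 6.30 ± 0.47 TPM, SLC38A8 at 0.13 ± 0.12 TPM, and SLC38A11 had 0 counts (3 counts would be at most 0.106 TPM).

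SLC3A2 (CD98 heavy chain, ENSG00000168003.19, chromosome 11, 62856109 to 62888860) was the highest carrier gene of all in the mean, with 131, 139 and 152 TPM, and ranked 950 of 19855 protein-coding genes. It does not transport by itself but brings SLC7 light chains to the cell surface. The other heavy chain, SLC3A1, which serves the kidney and intestine, was undetected at 0.09, 0.13 and 0.11 TPM (3.4, 6.0 and 4.8 counts). The difference of 6.99 ± 0.10 log2 units was the largest of the 12 pairs compared. The 8 light-chain genes together had 61.6, 82.1 and 85.9 TPM, below SLC3A2 alone in every library. By counts, which are not scaled for length, the order turned in every library. SLC3A2 had 5296, 5945 and 4975 counts. SLC7A5 (2960, 3028 and 3211), SLC7A8 (1999, 3014 and 1518) and SLC7A11 (1171, 2730 and 2594) together had more.

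Of those 8 light chains 5 were detected. SLC7A5 (LAT1, ENSG00000103257.9, chromosome 16, 87830023 to 87869507), the exchanger for leucine and other large neutral amino acids in growing cells, had 28.6, 28.6 and 40.0 TPM. SLC7A8 (LAT2), with a related range of substrates, had 23.0, 33.6 and 22.0 TPM. Their difference changed sign between libraries (0.30, -0.23 and 0.83 log2 units) and was smaller than its spread (0.30 ± 0.53). SLC7A11 (xCT, ENSG00000151012.13, chromosome 4, 138164097 to 138242349), which imports cystine for glutathione in exchange for glutamate, had 4.89, 11.2 and 13.7 TPM. It was lower in replicate 1 than in either of the others. SLC7A6 (y+LAT2) had 3.81, 7.39 and 8.99 TPM with the same low library, and SLC7A7 (y+LAT1) stood at 1.13 ± 0.09 TPM. SLC7A9, the partner of SLC3A1, was undetected at 0.080 ± 0.070 TPM, as were the glycine and D-serine exchanger SLC7A10 at 0.13 ± 0.10 TPM and SLC7A13, which had 0 counts.

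Cationic amino acid carriers, which import arginine and lysine, gave 3 of 5 detected. SLC7A1 (CAT1) had 22.1, 30.8 and 33.3 TPM and SLC7A3 (CAT3) 17.4, 14.4 and 20.0 TPM, so SLC7A1 was higher in each library, by 0.70 ± 0.36 log2 units. SLC7A2 (CAT2) had 5.01, 9.82 and 10.2 TPM, lowest in replicate 1. SLC7A4 at 0.18 ± 0.07 TPM and SLC7A14 at 0.017 ± 0.0058 TPM were undetected. In the SLC43 family all 3 members were detected. SLC43A3, a purine nucleobase carrier, had 11.1, 15.9 and 14.4 TPM and SLC43A2 (LAT4), which lets branched-chain amino acids and phenylalanine flow without exchange, 10.1, 9.19 and 12.6 TPM. SLC43A1 (LAT3), of like function, was lower at 1.98 ± 0.24 TPM, by -1.95 ± 0.15 log2 units from SLC43A2.

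The SLC6 family, which holds the plasma membrane carriers for most neurotransmitters, had the smallest share detected, 5 of 19. That is 26.3%, beside 62.2% of all protein-coding genes. SLC6A8 (ENSG00000130821.17, chromosome X, 153687926 to 153696593), the creatine carrier, had 107, 89.0 and 119 TPM and took 71.4% ± 2.10 of the family's TPM. The copies of it listed as SLC6A10P had 0 counts. SLC6A9 (GlyT1), the glycine carrier of glia and progenitors, had 21.3, 16.9 and 19.4 TPM, whereas SLC6A5 (GlyT2), which marks glycinergic neurons, had 0 counts. With 3 counts per library for SLC6A5, SLC6A9 was at least 418-fold higher in TPM in each library. SLC6A6, the taurine carrier, had 13.2, 13.6 and 15.6 TPM, and SLC6A8 exceeded it by 2.80 ± 0.16 log2 units.

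The GABA and betaine carriers described here were all undetected. SLC6A11 (GAT3) stood at 0.27 ± 0.03 TPM, SLC6A13 (GAT2) at 0.12 ± 0.08 TPM and the betaine carrier SLC6A12 at 0.40 ± 0.03 TPM. The monoamine carriers summed to 0.25, 0.34 and 0.19 TPM. SLC6A2 (noradrenaline) had 0.01, 0.25 and 0.06 TPM, SLC6A3 (dopamine) had 0.03, 0.01 and 0.03 TPM and SLC6A4 (serotonin) had 0.21, 0.08 and 0.10 TPM. Vesicular carriers were equally low. SLC17A6, SLC17A7 and SLC17A8 for glutamate, SLC32A1 for GABA and glycine, and SLC18A1, SLC18A2 and SLC18A3 for monoamines and acetylcholine all had means of at most 0.17 TPM (named after their values were seen). The GABA-synthesis genes GAD1 at 0.35 ± 0.32 and GAD2 at 0.33 ± 0.19 TPM were undetected too. Among the amino acid carriers of the family SLC6A16, of unknown substrate, stood at 3.78 ± 0.32 TPM and SLC6A15, a carrier of branched-chain amino acids and proline, at 4.66, 3.40 and 2.05 TPM. SLC6A7, SLC6A14, SLC6A17 and SLC6A20 had means of at most 0.070 TPM, and SLC6A18 and SLC6A19, known from kidney and intestine, had 0 counts.

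**Figure D3:**
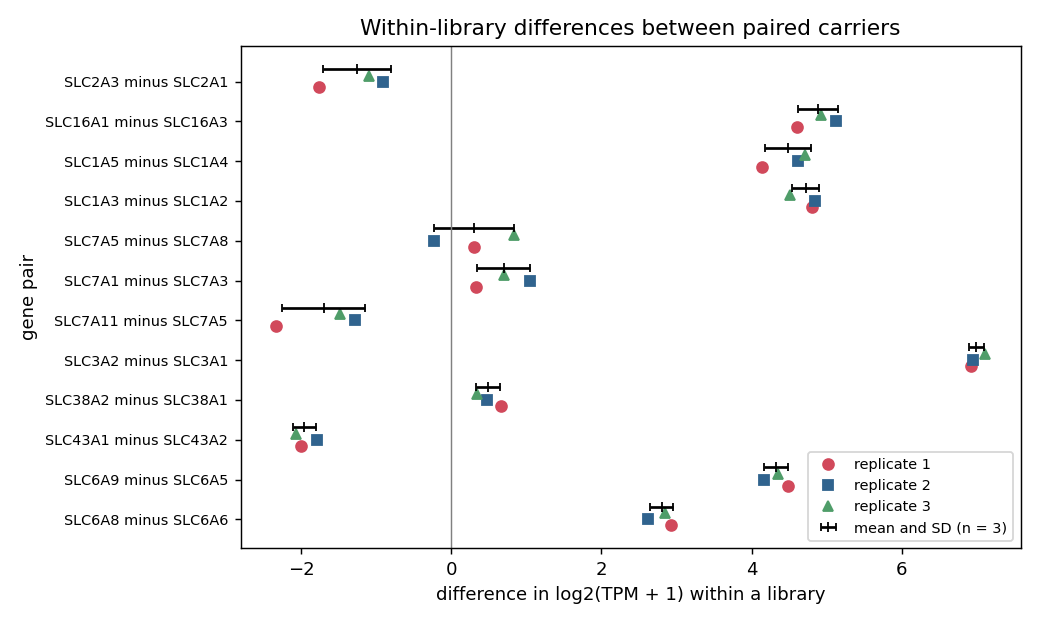
Difference in log2(TPM + 1) between the 2 genes of each of 12 pairs, within each library, with the mean and SD over the 3 libraries. SLC7A5 minus SLC7A8 is the only pair whose libraries lie on both sides of 0, and SLC3A2 minus SLC3A1 lies farthest out at 6.99.

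For 11 of the 12 pairs the difference had the same sign in all 3 libraries. For each, flipping the signs of the 3 differences in an exact two-sided permutation test gave p = 0.25 (Benjamini-Hochberg adjusted 0.273), the smallest that n = 3 allows, so no pair could pass a threshold of 0.05. SLC7A5 minus SLC7A8 gave an exact permutation p of 0.5 (adjusted 0.5, n = 3). SLC7A11 minus SLC7A5, differed by -1.70 ± 0.56 log2 units. The differences describe which gene of a pair is the higher one.

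Proteins that work with these carriers were described from a list of 8 genes, of which 6 were detected. For comparison with this list and those below, 62.2% of all protein-coding genes were detected. The lists were chosen with earlier results of these data known. BSG (basigin), the chaperone that brings MCT1 and MCT4 to the membrane, stood at 643 ± 77.3 TPM. TXNIP, which lowers glucose uptake through GLUT1, had 149, 91.2 and 144 TPM, and GIPC1, a scaffold that binds the GLUT1 tail, 65.0 ± 4.79 TPM. CLTRN, which brings SLC6A19 to the surface, was not detected at 1.22 ± 0.44 TPM, nor was SLC6A19 itself. Related carriers outside the families gave 10 of 22 detected. The highest were the mitochondrial aspartate-glutamate carrier SLC25A13 at 64.0 ± 6.35 TPM, the mitochondrial glutamate carrier SLC25A22 at 44.7 ± 3.46 TPM and the lysosomal cationic amino acid carrier SLC66A1 at 31.6 ± 0.89 TPM. SLC36A2 had 0 counts, like SLC5A1.

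Enzymes that use the carried substrates gave 19 of 24 detected. LDHB, the lactate dehydrogenase subunit favoured in oxidative tissue, reached 1566 ± 128 TPM, the glutamine synthetase gene GLUL 564 ± 27.0 TPM and ODC1, which makes polyamines from ornithine, 391 ± 50.2 TPM. LDHA, named after its values were seen, was lower than LDHB at 276 ± 15.1 TPM. Lowest were ARG1, the liver arginase, at 0.017 ± 0.029 TPM and DIO2, a deiodinase, at 0.18 ± 0.13 TPM. Beside the creatine carrier SLC6A8, the creatine kinase gene CKB had 460, 242 and 334 TPM and the 2 creatine-synthesis genes GATM and GAMT 4.38 ± 0.56 and 27.6 ± 2.94 TPM (all named after their values were seen).

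All 15 listed genes of amino acid sensing and of the ATF4 response were detected, beside 62.2% of all protein-coding genes. ATF4, the transcription factor whose translation rises when amino acids are scarce, stood at 543 ± 39.6 TPM, LAMTOR1, an anchor of mTORC1 at the lysosome, at 90.8 ± 5.41 TPM and MTOR at 48.7 ± 9.74 TPM. The arginine sensor genes CASTOR1 and CASTOR2 were the lowest at 2.54 ± 0.09 and 6.40 ± 0.71 TPM. ATF4 binds a composite element that is found in several amino acid carrier genes, and its core letters TGATGNAA were searched on both strands of RefSeq promoter windows (GRCh38.p14, 250 bases before to 50 after each start site). Windows were found for 60 of the 83 carriers. A match was present in 6 of 32 detected and 1 of 28 undetected carriers with a window. That is 11.7% of the carriers beside 4.46% of all genes with a window. Counted by window it is 7.87% of the 89 carrier windows beside 3.62% of all 35116 windows. All genes were not split by detection, so the counts for detected and undetected carriers have no background. The 7 stretches of 30 bases are printed 5′ to 3′ on the gene's strand to show where the element lies, with the match in capitals (TTNCATCA where it is on the opposite strand).
SLC3A2, chr11:62881719-62881748: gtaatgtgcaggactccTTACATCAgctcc
SLC1A5, chr19:46784893-46784922: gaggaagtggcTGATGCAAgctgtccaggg
SLC38A1, chr12:46266502-46266531: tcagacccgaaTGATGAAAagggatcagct
SLC1A3, chr5:36596357-36596386: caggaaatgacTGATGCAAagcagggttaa
SLC7A1, chr13:29595663-29595692: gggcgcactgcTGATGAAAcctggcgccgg
SLC1A4, chr2:64989381-64989410: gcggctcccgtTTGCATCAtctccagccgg
SLC2A5, chr1:9069781-9069810: accgtagactgTTCCATCAggacaatgctg
The levels of these 7 genes ran from SLC3A2 at 140 TPM to SLC2A5 at 0.11 TPM. A match of these letters is no measure of binding, the motif was chosen with the levels known, and sites outside the window were not searched.

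The 3 libraries did not agree equally for all carriers. Of the 45 detected carriers 18 differed at least 1.5-fold and 8 at least 2-fold in TPM between their highest and lowest library. These folds were not counted over other genes, so they do not show whether carriers vary more than genes at large. In a test of excess spread across all genes (edgeR, residual deviance of an intercept-only fit on rounded expected counts against the trend of all genes, Benjamini-Hochberg adjusted p under 0.05), 55 carriers could be tested and 1 was called, beside 1.59% of all 17046 genes tested. The called gene was SLC2A1, with 9808, 4728 and 3791 counts, whose replicate 1 stood 1.20 log2 CPM above the mean of replicates 2 and 3 (edgeR adjusted p = 0.047). It was not called without a filter on low counts, with a common dispersion, or when any 1 library was left out. SLC7A11 followed with 1171, 2730 and 2594 counts (-1.20 log2 CPM in replicate 1, edgeR adjusted p = 0.0718), then SLC16A7 with 33, 126 and 154 counts (-2.03 log2 CPM, edgeR adjusted p = 0.133).

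Transcript length moved with these deviations. Across the 55 carriers Spearman's rho between mean transcript length and the deviation of replicate 1 was -0.42, and across all genes tested it was -0.45. These are correlations over genes that share their libraries and are given as a description. Of the carriers low in replicate 1, several had long transcripts, with 9645 bases for SLC7A11, 10805 for SLC16A7, 7414 for SLC38A1 and 7476 for SLC7A2, while SLC2A1 had 2018 bases. Others were shorter: SLC16A6, with 2963 bases, lay at -0.83 log2 CPM in replicate 1 and SLC16A5, with 1659 bases, at -0.55. When a smooth trend on length was taken out of each library (chosen after seeing the data), the deviations became -0.47 for SLC7A11, -1.23 for SLC16A7, -0.14 for SLC38A1 and -0.27 for SLC7A2, but -0.79 for SLC16A6 and -0.68 for SLC16A5, against 1.12 for SLC2A1 (edgeR adjusted p = 0.00337). Summed levels of cell type markers also differed in replicate 1. Summed TPM in replicates 1, 2 and 3 was 1083, 685 and 613 for neuron markers and 572, 1268 and 905 for mesenchyme markers. All 7 mesenchyme markers were lowest in replicate 1. The neuron sum was carried by NEFM (485, 241 and 176 TPM) and TUBB3 (478, 324 and 323 TPM). By TPM 4 of the 8 neuron markers were highest in replicate 1, and 2, MAP2 and SNAP25, were lowest there. Of all genes tested for spread 40.8% were highest in replicate 1 and 41.1% were lowest there, by log2 CPM. The part of length and of cell type markers in the high level of SLC2A1 was not tested beyond these values.

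**Figure D4:**
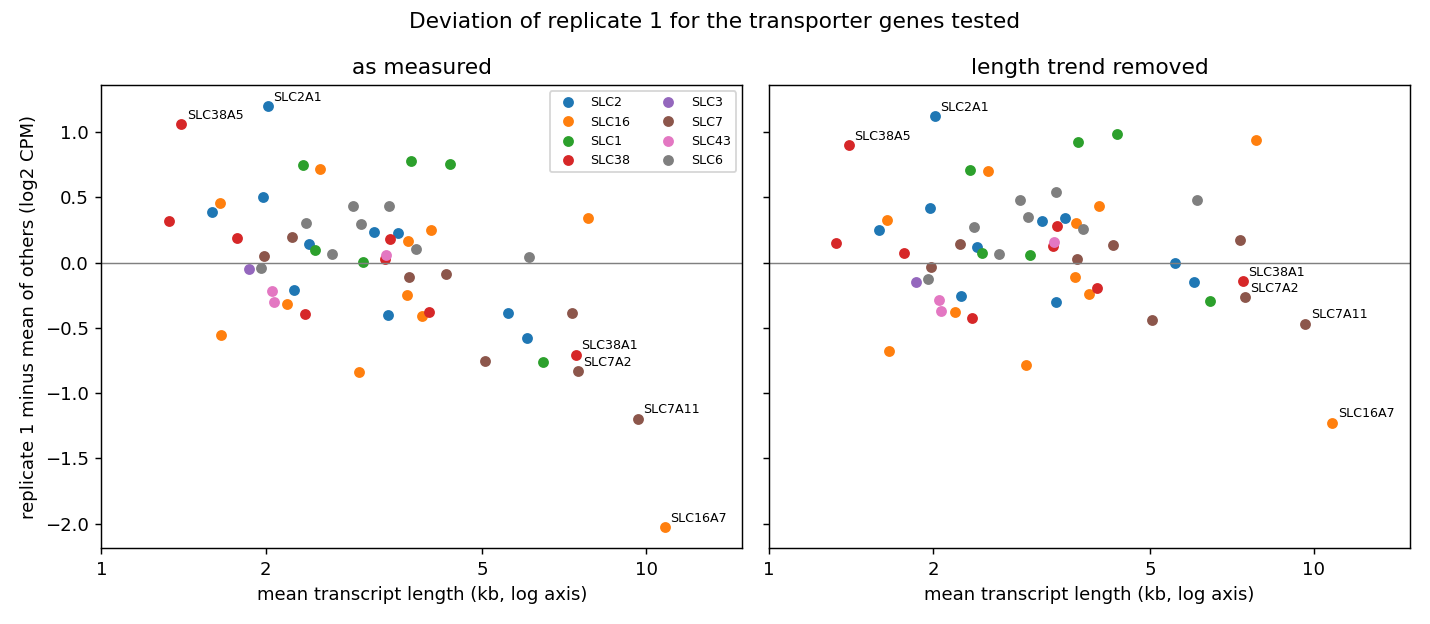
Deviation of replicate 1 from the mean of the other libraries (log2 CPM) against mean transcript length (kb, log axis) for the 55 carriers tested, as measured and with the length trend of all genes removed. SLC7A11, SLC38A1 and SLC7A2 move toward 0 on the right, while SLC2A1 stays at 1.12.

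For 3 detected carriers the mean transcript length differed at least 1.5-fold between libraries, which enters their TPM. The mean transcript length that RSEM assigned to SLC6A15 was 1667, 2171 and 4092 bases in replicates 1, 2 and 3, so that 174, 171 and 159 counts became 4.66, 3.40 and 2.05 TPM. SLC38A3 went from 2953 to 1510 bases between replicates 1 and 3, with 78 and 98 counts and 1.12 and 3.86 TPM. SLC16A10 had 10205, 4661 and 8593 bases. For SLC16A10 the order of the libraries in TPM is not that of their counts. Scaling its counts for depth kept their order (3.127, 2.561 and 3.005 log2 CPM). For SLC38A3 the counts scaled for depth (1.220, 1.503 and 1.716 log2 CPM) had the same order as TPM. For SLC6A15 counts that differed 1.09-fold gave TPM values that differed 2.27-fold. Smaller differences in length occurred elsewhere, as in SLC7A6, with 5456, 5466 and 4227 bases, 507, 1002 and 722 counts, and its highest TPM in replicate 3.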

How the data were processed

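Polyadenylated RNA of 3 pNPC_WT replicates was measured. Per the submitters' processing notes, RSEM 1.3.1, STAR 2.7.11a and Trim Galore 0.6.10 were used with GRCh38. No release of the gene annotation is stated there (not given in the sources used here). By column name, per the file headers, the deposited expected counts are estimated reads per gene, not normalized, the deposited TPM values are scaled by the authors for effective length and library, and the deposited FPKM values served only as an alternative. Lengths are those the authors deposited.

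Members and the 10 lists (107 genes) were chosen with earlier results of these data known. Every member may be named (some genes are counted in the totals but not reported here), with values by library from a mean of 10 TPM and for each family's highest gene; each list names its 3 highest and up to 2 lowest genes. Expected counts were rounded for edgeR 4.0.16 (TMM, filterByExpr, trended dispersion, 2 degrees of freedom, tested on simulated data). Within-library pair differences used a pseudocount of 1, which understates differences of low genes, and sign-flip permutation over 3 libraries. Alternatives were other TPM minimums, FPKM, CPM without length scaling, DESeq2 1.42.0 size factors, no filter, a common dispersion, leaving out each replicate and, added after seeing the data, removing a length trend. Gene types came from GENCODE 29, coordinates from RefSeq GRCh38.p14. Floors use 3 counts and cover counting error only. Python 3.11.15 and R 4.3.3 were used.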

Additional observations from a re-analysis of the deposited data

How the results depend on the processing

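The count of detected carriers was 45, fell to 28 at a TPM minimum of 5 and ranged from 45 to 46 without each replicate in turn. The 45 are 54.2% of the carriers, beside 62.2% of protein-coding genes. At the minimum of 5 TPM it was 33.7% of the carriers beside 49.5% of protein-coding genes. Without a replicate it was 54.2% to 55.4% beside 62.6% to 63.5%. The number of carriers with excess spread, 1 in the edgeR fit, was 0 with no filter on low counts. It was also 0 without each replicate in turn. At an unadjusted p under 0.05 edgeR gave 5 of 77 carriers tested with no filter and 3 to 5 of 56 without a replicate. Such unadjusted calls were not counted over all genes, so they do not show whether carriers vary more than genes at large. DESeq2 size factors in the same fit left 1 call, SLC2A1, and with a common dispersion the 1 call was SLC16A7 in place of SLC2A1. Among 72 alternative values of the 12 pair differences 71 kept their sign. Most could not change it, because another pseudocount, FPKM or leaving out a library cannot turn a pair with the same sign in every library. Only CPM with no length scaling could turn such a pair, and with it SLC38A2 minus SLC38A1 turned to -0.43. That setting also moved SLC7A1 minus SLC7A3 from 0.70 to 2.50, SLC2A3 minus SLC2A1 from -1.25 to -0.39, SLC7A11 minus SLC7A5 from -1.70 to -0.59, SLC6A8 minus SLC6A6 from 2.80 to 1.78 and SLC7A5 minus SLC7A8 from 0.30 to 0.54. A pseudocount of 0.1 moved SLC6A9 minus SLC6A5 from 4.33 to 7.58, and SLC7A5 minus SLC7A8 ranged from 0.04 to 0.57 without each replicate in turn. No paired analysis was possible because the labels give 1 group, so no sample has a partner in another group; the gene pairs are compared within libraries. Depth limits the order of carriers near the threshold: SLC7A7, at 1.13 TPM, rested on 43 to 49 counts.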
